A study of Mus musculus with 8 samples.

Results

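The respiratory chain genes described here are the subunits of complexes I to V of oxidative phosphorylation and the Ndufaf assembly factors of complex I, 105 of the 32285 genes measured in mouse liver. The rule takes them by their symbols, although the set itself was chosen with earlier results of these data known. It holds the mt-Nd, mt-Co, mt-Atp and mt-Cytb genes of the mitochondrial genome, and the nuclear genes of the Nduf, Uqcr, Cox, Atp5 and Sdh families. Of these, 13 are encoded in mitochondria (7 of complex I, 1 of complex III, 3 of complex IV and 2 of complex V). The other 92 are encoded in the nucleus (39 subunits of complex I, 8 assembly factors of complex I, 4 subunits of complex II, 8 of complex III, 16 of complex IV and 17 of complex V). All are annotated as protein coding except Ndufb1-ps, which the annotation lists as a long non-coding RNA. The naming rule leaves out Cox4i1, Cox4i2, Cyc1 and the electron carrier Cycs, which are given with the other pathway genes at the end.

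RNA of liver nuclei was counted as unique molecular identifiers (UMIs), with 1 library for each of 8 male DIAMOND mice. This line, bred from 129A1/SvIm and C57BL/6J, develops fatty liver and liver tumours on a Western diet. All mice began a Western diet (WD), which is high in fat with fructose and glucose in the water. In the WD tumour group (n = 3 mice) it was given for 48 weeks, and these mice had hepatocellular carcinoma. In the RD tumour group (n = 2 mice, with carcinoma) and the RD no tumour group (n = 3 mice, none detected) it was given for 36 weeks and then reversed to standard chow (CD), which the prefix RD marks. WD tumour and RD tumour differ in diet, RD tumour and RD no tumour in tumour status, and WD tumour and RD no tumour in both. Mice without a tumour on continued Western diet and mice never given it are not among the samples. The age at sampling is uncertain: 48 weeks per the labels, whereas in the series text the diets began at an age of 2 months and lasted 48 weeks. Whether tumour tissue was part of a sampled liver piece is not given.

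The respiratory chain passes electrons from NADH (complex I) and succinate (complex II) through complexes III and IV to oxygen and pumps protons as it does so, and complex V, the ATP synthase, makes ATP from the proton gradient. Every complex but complex II is built from proteins of both genomes, so the cell has to match transcripts made inside mitochondria with transcripts made in the nucleus and translated in the cytosol. Hepatocytes are rich in mitochondria, and fatty liver disease is known for altered mitochondrial function.

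Of 80575 barcodes, 79446 had at least 300 detected genes and were kept, holding 210643122 UMIs in all and between 17948627 (WD tumour 1) and 34363108 (RD tumour 1) per mouse. The median barcode held 1908 to 2656 UMIs in RD no tumour, with 1120 and 1299 in RD tumour and 1421 to 1824 in WD tumour. A pair of libraries shared at most 65 barcodes, and the largest share of the smaller library, in another pair with 60 shared barcodes, was 0.676%. All 10 hepatocyte markers were detected, and their summed UMIs made up 0.668%, 1.16% and 1.07% of the library in RD no tumour 1 to 3, 0.503% and 0.903% in RD tumour 1 and 2, and 1.25%, 0.496% and 1.13% in WD tumour 1 to 3. RD tumour 1 stood apart from the other libraries. Its profile correlated with theirs at 0.798 to 0.883 across genes, against 0.919 to 0.985 among the other 7. It held exactly 20000 barcodes, and cytosolic ribosomal protein genes gave 5.30% of its UMIs against 1.19% to 1.99% elsewhere. WD tumour 2 correlated with RD no tumour 1, a mouse of another group, at 0.970.

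The mitochondrially encoded genes took more of the library in WD tumour than in the other groups on average, but 1 WD tumour mouse did not stand out. They made up 1.27%, 2.56% and 1.21% of all UMIs in RD no tumour 1 to 3, 1.63% and 1.36% in RD tumour 1 and 2, and 4.21%, 1.68% and 4.24% in WD tumour 1 to 3. Group means were 1.68% ± 0.763 (SD, n = 3), 1.49% ± 0.185 (SD, n = 2) and 3.38% ± 1.47 (SD, n = 3). WD tumour 1 and 3 lay above every mouse on reversed diet, and WD tumour 2 lay below RD no tumour 2. The nuclear-encoded genes made up 0.461%, 0.985% and 0.594% of UMIs in RD no tumour, with 1.00% and 0.623% in RD tumour, and 0.970%, 0.449% and 0.728% in WD tumour. Here the 3 groups overlapped throughout, and the highest and lowest mouse differed by 2.24-fold, against 3.50-fold for the mitochondrially encoded genes. Counting error was small beside this spread: the 95% Wilson interval of a share reached at most 0.615% of its value on either side, and it covers counting error only. These are sums over whole libraries, in which fewer cells of a type and less RNA per cell cannot be told apart.

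**Figure D1:**
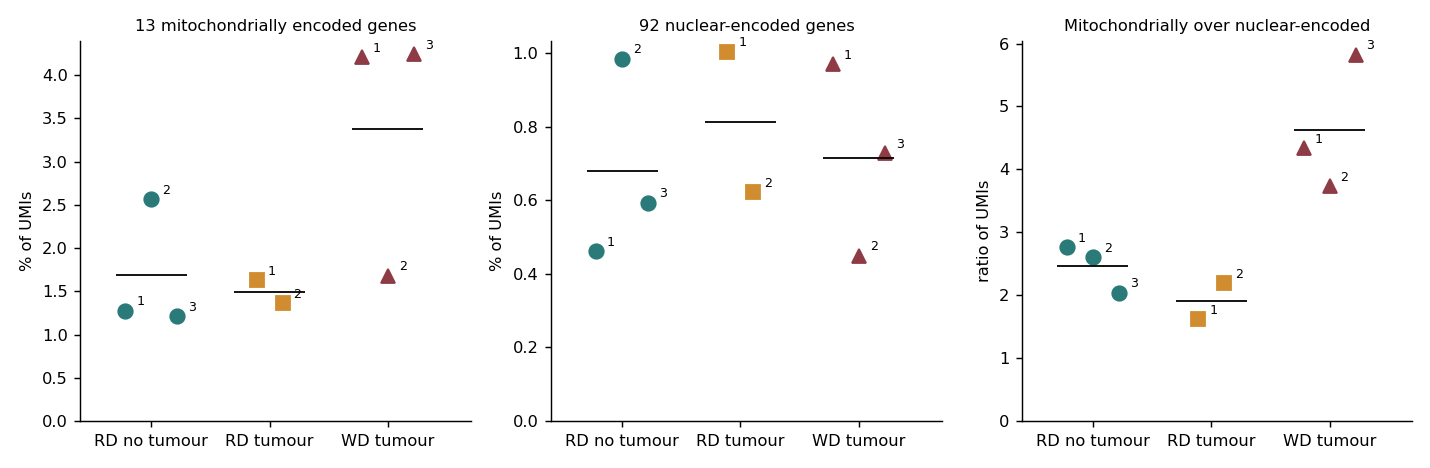
Percent of all UMIs of a library from the 13 mitochondrially encoded genes (left) and the 92 nuclear-encoded genes (middle), and the ratio of these 2 sums (right), with 1 point per mouse numbered by replicate and a bar at the group mean. The ratio of all 3 WD tumour mice, from 3.74 to 5.83, lies above the highest ratio on reversed diet, 2.76, while the shares of the groups overlap.

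Set against the nuclear-encoded genes of the same mouse, the mitochondrially encoded genes were higher in every WD tumour mouse. The ratio of mitochondrially to nuclear-encoded UMIs was 2.76, 2.603 and 2.04 in RD no tumour 1 to 3, 1.62 and 2.19 in RD tumour 1 and 2, and 4.34, 3.74 and 5.83 in WD tumour 1 to 3. Group means were 2.47 ± 0.380 (SD, n = 3), 1.90 ± 0.404 (SD, n = 2) and 4.63 ± 1.08 (SD, n = 3). The lowest WD tumour mouse lay above the highest of the 5 mice on reversed diet, and the RD tumour and RD no tumour mice overlapped. This ratio was added after the data had been seen and sums over the chosen genes, so it carries no test. The libraries are of nuclei, whereas the mitochondrially encoded transcripts are made inside mitochondria, and RNA free in the suspension was not removed. The part of RNA carried over from outside the nuclei in this ratio was not tested.

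The separation was found in complexes I, IV and V and not in complex III. For complex I the ratio was 1.65, 1.51 and 1.39 in RD no tumour, with 1.14 and 1.45 in RD tumour, and 2.76, 2.26 and 3.31 in WD tumour. For complex IV it was 7.55, 6.36 and 5.23, then 3.58 and 5.86, then 10.6, 9.58 and 15.7 in the same order of groups. For complex V, whose mitochondrially encoded subunits form part of the membrane-bound portion of the synthase, it was 2.06, 2.44 and 1.54, then 1.09 and 1.56, then 3.73, 3.04 and 4.94. For complex III, in which mt-Cytb is the only mitochondrially encoded subunit, WD tumour 1 at 1.69 lay below RD no tumour 1 at 2.01, so that the groups overlapped.

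The ratio was also computed within sets of barcodes, to see whether it followed the make-up of the library. The sets were cut from UMI counts of marker genes in barcodes with 1000 to 5000 UMIs and are ranges of a marker count, not cell types. In barcodes led by endothelial markers the ratio was 3.02 to 3.23 in RD no tumour, with 1.63 and 2.95 in RD tumour and 4.36 to 7.18 in WD tumour. Stellate and fibroblast markers gave 2.69 to 3.37, then 1.60 and 2.69, then 4.25 to 7.14, and macrophage markers 2.51 to 3.00, then 1.58 and 2.93, then 4.25 to 6.59. In barcodes with no UMI of the endothelial, stellate and fibroblast, macrophage and cholangiocyte lists it was 1.84 to 3.03, 1.69 and 1.78, and 4.28 to 5.66. All 3 WD tumour mice lay above all 5 mice on reversed diet in each of these 4 sets. In barcodes led by cholangiocyte markers, which numbered only 22 in RD tumour 1, WD tumour at 4.11 to 6.69 overlapped RD no tumour 1 at 5.05 and RD tumour 2 at 4.99. Hepatocyte markers were present in every set, at 0.246% to 0.786% of the UMIs outside mitochondrial genes in the endothelial set and 0.503% to 1.48% in the set without UMIs of the 4 other lists, so none of the sets holds the RNA of 1 cell type alone.

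**Figure D2:**
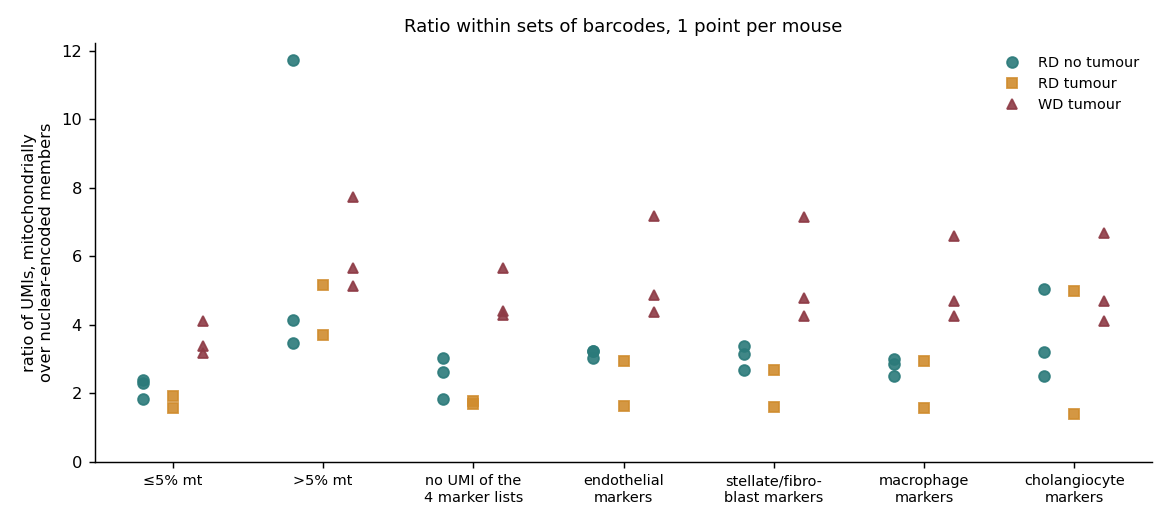
Ratio of UMIs of mitochondrially encoded to nuclear-encoded respiratory chain genes (vertical axis) within 7 sets of barcodes (horizontal axis), 1 point per mouse, coloured by group. WD tumour lies above both groups on reversed diet in barcodes with at most 5% mitochondrial UMIs, without UMIs of the 4 marker lists (endothelial, stellate and fibroblast, macrophage, cholangiocyte) and with endothelial, stellate or fibroblast, or macrophage markers, and overlaps them above 5% and with cholangiocyte markers.

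Barcodes rich in mitochondrial transcripts were themselves more frequent in WD tumour. Those with over 5% of their UMIs from mitochondrial genes made up 4.91%, 27.96% and 12.03% of barcodes in RD no tumour, with 1.59% and 10.8% in RD tumour, and 64.6%, 33.1% and 63.1% in WD tumour. In the remaining barcodes, at or under 5%, the ratio was 1.83 to 2.38 in RD no tumour, with 1.58 and 1.93 in RD tumour and 3.18 to 4.11 in WD tumour, so the groups did not overlap, although the limit caps the share itself. Above 5% the ratio was 3.46 to 11.7, 3.69 and 5.15, and 5.13 to 7.72, and the groups overlapped. The sum of the cholangiocyte markers was also highest in WD tumour. The 10 cholangiocyte markers, all detected, summed to 0.0109% to 0.0272% of UMIs in RD no tumour, with 0.0138% and 0.0170% in RD tumour and 0.0303% to 0.0424% in WD tumour. Gene by gene these markers did not all go that way. In WD tumour against RD no tumour 8 of 10 were higher (median log2 fold change 0.90). Against RD tumour 5 of 10 were higher and 5 lower (median 0.06). In RD tumour against RD no tumour 8 of 10 were higher as well (median 0.90). The part of these markers in the ratio of the whole library was not tested. Against other nuclear genes of mitochondria the groups were not separated. UMIs of the mitochondrially encoded genes over those of mitochondrial ribosomal protein genes gave 6.60, 10.46 and 5.91 in RD no tumour, with 6.85 and 6.51 in RD tumour, and 19.3, 9.71 and 19.9 in WD tumour. Over citric acid cycle genes the ratio was 13.5, 19.2 and 10.1, then 14.7 and 10.4, then 30.6, 17.5 and 32.8. In both, WD tumour 2 lay within the range of the mice on reversed diet.

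Each of the 13 mitochondrially encoded genes had a positive log2 fold change in WD tumour against RD no tumour (median 0.96, from 0.65 for mt-Cytb to 1.38 for mt-Nd6). The same held against RD tumour (median 0.89, from 0.45 for mt-Nd1 to 1.66 for mt-Co3), but not under 2 alternatives. In barcodes with at most 5% mitochondrial UMIs the median was 0.14 with 8 of 13 positive, and mt-Nd1, mt-Co1, mt-Atp8, mt-Nd5 and mt-Nd6 were negative. Without RD tumour 2, mt-Nd1 was at -0.089 and mt-Nd6 at -0.034, and 11 of 13 were positive. None passed the test at an adjusted p of 0.05. Fold changes are from edgeR's quasi-likelihood fit to all genes. No gene of the 19087 tested passed in any of the 3 comparisons (percent called 0 in each direction), with edgeR's quasi-likelihood test and Benjamini-Hochberg adjustment. At an unadjusted p under 0.05, 0 of the 13 passed in WD tumour against RD no tumour, where 1.84% of all genes passed as higher and 0.906% as lower. In WD tumour against RD tumour 1 of the 13 passed that level, mt-Co3, where 2.83% of all genes passed as higher and 4.72% as lower. The 13 genes are cut from long shared precursor transcripts and are not independent of each other. DESeq2 called 0 of 104 members in these comparisons, where it called 0.136% and 0.452% of all genes in either direction. At an unadjusted p under 0.05 it gave 4 members (all mitochondrially encoded) against RD no tumour, where 2.71% of all genes passed. Against RD tumour it gave 6 (5 mitochondrially encoded), where 8.65% passed. In RD tumour against RD no tumour 4 of the 13 were higher and 9 lower (median log2 fold change -0.09), and the median of all genes lay at 0.00. Without RD no tumour 2 all 13 were higher (median 0.32), and without RD tumour 1 none was (median -0.34). In barcodes with at most 5% mitochondrial UMIs 7 were higher (median 0.13). None passed at an unadjusted p under 0.05 with either tool, where with edgeR 4.51% of all genes passed as higher and 2.18% as lower. DESeq2 called 0.276% of all genes there, and 8.25% passed the unadjusted level.

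Levels are given in CPM, UMIs per 1e+06 UMIs of a library total scaled by its normalization factor (TMM), with mice in the order of their numbers. In complex I, mt-Nd1, a core membrane subunit, reached 524, 657 and 577 CPM in RD no tumour, with 1268 and 459 in RD tumour and 1531, 695 and 1303 in WD tumour. It was the only mitochondrially encoded gene with every WD tumour mouse above every RD no tumour mouse (1 of 13, where 5.87% of all genes tested had this), with a log2 fold change of 1.01 (SE 0.47, edgeR adjusted p 1.00). RD tumour 1 lay among the WD tumour mice, and RD tumour 2 was the lowest of the 8. The proton-pumping subunit mt-Nd4 reached 802, 1839 and 1057 CPM in RD no tumour, with 949 and 1023 in RD tumour and 3092, 1052 and 2619 in WD tumour. Another membrane subunit, mt-Nd2, reached 868, 1859.6 and 1030.1 CPM in RD no tumour, with 1045 and 881 in RD tumour and 2875, 1046 and 2748 in WD tumour. For both, every WD tumour mouse lay above both RD tumour mice, WD tumour 2 by little, and RD no tumour 2 lay above WD tumour 2. For mt-Nd3, of which the same holds, the values were 169, 668 and 152 CPM in RD no tumour, with 266 and 264 in RD tumour and 1211, 327 and 967 in WD tumour. The largest pumping subunit, mt-Nd5, was at 168, 289 and 232 CPM in RD no tumour, with 219 and 225 in RD tumour and 458, 209 and 421 in WD tumour. WD tumour 2 lay within the range of the reversed diet. The short subunit mt-Nd4l was at 49.4, 116 and 53.9 CPM in RD no tumour, with 75.1 and 64.5 in RD tumour and 162, 55.7 and 160.4 in WD tumour. WD tumour 2 was again among the mice on reversed diet. The gene mt-Nd6, the only member on the opposite strand of the mitochondrial genome, was at 39.6, 114 and 67.0 CPM in RD no tumour, with 199 and 40.2 in RD tumour and 287, 112 and 176 in WD tumour. Here RD tumour 1 lay among the WD tumour mice.

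In complex III, mt-Cytb, which carries both haem b groups, was at 949, 1582 and 974 CPM in RD no tumour, with 973 and 1003 in RD tumour and 2173, 1028 and 2284 in WD tumour. WD tumour 1 and 3 were the 2 highest mice, and WD tumour 2 was close to RD tumour 2. In complex IV, mt-Co3 had the largest difference between WD tumour and RD tumour. It was at 2770.0, 6259.7 and 2667 CPM in RD no tumour, with 2899 and 2809 in RD tumour and 11543, 3843 and 11755 in WD tumour. Its log2 fold change was 1.66 (SE 0.71, edgeR adjusted p 0.589) against RD tumour. Against RD no tumour, where RD no tumour 2 overlapped, it was 1.21 (SE 0.61, edgeR adjusted p 1.00). The catalytic subunit mt-Co1 was at 1907, 3528 and 2183 CPM in RD no tumour, with 3212 and 2224 in RD tumour and 5086, 2188 and 5082 in WD tumour. The subunit mt-Co2, which takes the electrons from cytochrome c, was at 1583, 2858 and 1481 CPM in RD no tumour, with 2334 and 1385 in RD tumour and 5146, 2092 and 4939 in WD tumour. For both, WD tumour 2 lay below RD tumour 1. In complex V, mt-Atp6, the subunit of the proton channel, was at 2332, 6517 and 2673 CPM in RD no tumour, with 2999.6 and 2414 in RD tumour and 9777, 3269 and 9515 in WD tumour. The subunit mt-Atp8 was at 29.8, 93.0 and 31.7 CPM in RD no tumour, with 76.8 and 40.9 in RD tumour and 121, 51.8 and 127 in WD tumour. Counting all 13, every WD tumour mouse was above both RD tumour mice for 6 genes (mt-Nd2, mt-Nd3, mt-Nd4, mt-Co3, mt-Atp6 and mt-Cytb), where 12.2% of all genes tested had this.

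**Figure D3:**
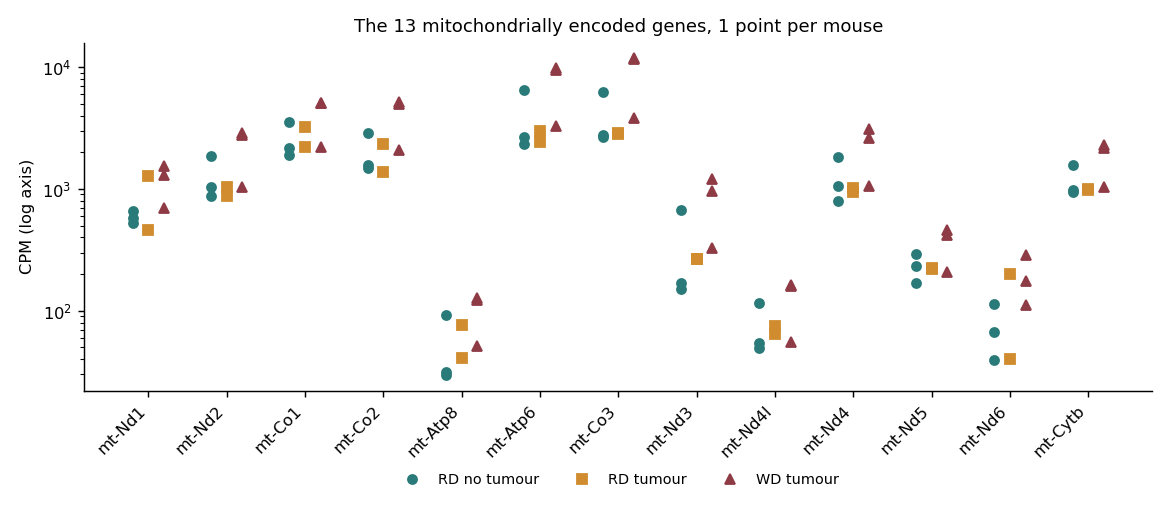
Level in CPM (vertical log axis) of the 13 mitochondrially encoded genes in the order of their position on the mitochondrial genome, 1 point per mouse, coloured by group. In nearly every gene 2 WD tumour mice lie highest and the third lies near the mice on reversed diet, whereas RD tumour 1 is among the high mice for mt-Nd1 and mt-Nd6.

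The mitochondrial genome packs its genes so closely that UMIs near a junction can be assigned to either neighbour. The genes mt-Atp8 and mt-Atp6 share 43 bases, shown here because both subunits of complex V are read from them, with the start codon of mt-Atp6 and the stop codon of mt-Atp8 in capitals (GRCm38, plus strand, GENCODE release M21):
mt-Atp8 and mt-Atp6 overlap, chrM:7927-7969: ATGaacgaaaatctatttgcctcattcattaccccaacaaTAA
A further 7 bases are shared by mt-Nd4l and mt-Nd4, 1 base by mt-Atp6 and mt-Co3, and 14 bases by mt-Nd5 and mt-Nd6, which lie on opposite strands. Whether counting used the strand is not given in the sources used here, nor is how reads that also match nuclear copies of mitochondrial DNA were treated, so values of overlapping neighbours are uncertain.

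Within the mitochondrially encoded UMIs the make-up also differed between mice. The share of mt-Co3 was 22.7%, 23.7% and 20.2% in RD no tumour, with 17.6% and 21.9% in RD tumour, and 26.6%, 24.1% and 27.9% in WD tumour, where all 3 mice were above the other 5. The share of mt-Nd4l ran the other way, at 0.405%, 0.439% and 0.409%, then 0.455% and 0.503%, then 0.373%, 0.349% and 0.381%. The share of mt-Co1 was 11.7% to 13.7% in WD tumour and 13.4% to 19.4% in the mice on reversed diet, with an overlap at RD no tumour 2. RD tumour 1 stood out with 7.68% from mt-Nd1, against 2.49% to 4.38% in the other 7 mice, and 1.20% from mt-Nd6, against 0.313% to 0.702%. Shares of a sum are bound to each other: where mt-Co3 takes more, the rest take less.

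No nuclear-encoded gene passed the test between groups, and most of them were high or low together in a mouse. Of the 92, 89 could be tested, and 0 passed in any comparison with edgeR or with DESeq2. At an unadjusted p under 0.05 with edgeR, 0 passed in WD tumour against RD no tumour and in RD tumour against RD no tumour, and 1 in WD tumour against RD tumour (Ndufa4l2). Of all genes tested, 1.84%, 4.51% and 2.83% passed that level as higher in these comparisons, and 0.906%, 2.18% and 4.72% as lower. The median log2 fold change of the 89 was 0.04 in WD tumour against RD no tumour (53 higher, 36 lower), 0.22 in RD tumour against RD no tumour (68 higher, 21 lower) and -0.18 in WD tumour against RD tumour (24 higher, 65 lower). The medians of all genes tested were -0.01, 0.00 and -0.01, with 49.0%, 50.2% and 49.2% of genes higher. These directions turned with the barcodes and mice used. In WD tumour against RD no tumour the median was -0.34 (6 of 89 higher) in barcodes with at most 5% mitochondrial UMIs and -0.08 (23 of 89) with at least 500 detected genes. There it was -0.19 without RD no tumour 1, -0.02 without RD no tumour 3 and -0.30 without WD tumour 1, and 0.37 without RD no tumour 2 and 0.30 without WD tumour 2. Without RD tumour 1 the medians of both comparisons with RD tumour had the opposite signs, -0.27 and 0.30. Without RD no tumour 1 that of RD tumour against RD no tumour was -0.03, and without WD tumour 2 that of WD tumour against RD tumour was 0.06. Leaving out RD tumour 2 leaves that group 1 mouse, whose spread is taken from the others. In that setting edgeR called many genes, members among them, in both comparisons with RD tumour. Those calls are not counted here and are no result about the members.

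Relative to the RD no tumour mean of each gene, the median log2 level of the 89 genes was -0.55, 0.60 and -0.05 in RD no tumour 1 to 3. It was 0.64 and -0.17 in RD tumour 1 and 2, and 0.55, -0.57 and 0.13 in WD tumour 1 to 3. In RD no tumour 1 and in WD tumour 2, 4 of the 89 genes lay above the reference, whereas 85 did in RD no tumour 2, 84 in WD tumour 1 and 76 in RD tumour 1. The mice at both ends thus came from different groups. In the 5 sets of barcodes cut by markers, the nuclear-encoded genes made up 0.469% to 0.541% of the UMIs outside mitochondrial genes in WD tumour 2 and 1.20% to 1.42% in RD no tumour 2. In RD tumour 1 they made up 1.10% in the macrophage set, which held 8173 barcodes, and 0.749% to 0.830% in the other 4, so that its high level was not found in every set. The hepatocyte marker share was also low in WD tumour 2 and high in RD no tumour 2 and WD tumour 1, but low in RD tumour 1, and its part in these levels was not tested.

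**Figure D4:**
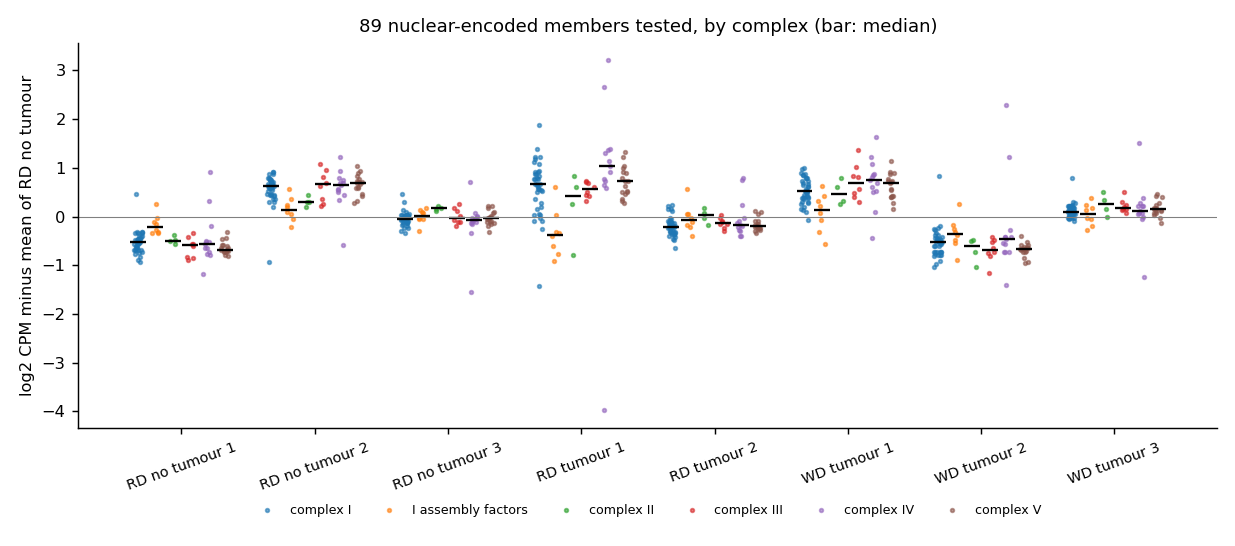
Log2 CPM of the 89 nuclear-encoded genes tested minus the mean of the RD no tumour mice (vertical axis) in each of the 8 mice, 1 point per gene, coloured by complex, with a bar at the median of each complex. The complexes lie at like levels within a mouse, low in RD no tumour 1 and WD tumour 2 and high in RD no tumour 2, RD tumour 1 and WD tumour 1, whereas the assembly factors of complex I move less and are low in RD tumour 1.

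Among the 39 nuclear-encoded subunits of complex I the median log2 fold change was 0.00 in WD tumour against RD no tumour (20 higher, 19 lower), 0.22 in RD tumour against RD no tumour (29 higher, 10 lower) and -0.21 in WD tumour against RD tumour (9 higher, 30 lower). The 2 with the most UMIs were Ndufa4, which was first described in complex I and has been assigned to complex IV since, and the accessory subunit Ndufb9. Ndufa4 was at 123, 415 and 204 CPM in RD no tumour, with 324 and 167 in RD tumour and 397, 117 and 249.7 in WD tumour. Ndufb9 was at 71.9, 260.0 and 137 CPM in RD no tumour, with 140.5 and 102 in RD tumour and 196, 66.7 and 141 in WD tumour. In both, RD no tumour 2 was the highest mouse and WD tumour 2 and RD no tumour 1 the lowest pair, so that the groups overlapped. Ndufa1, a small subunit encoded on the X chromosome, had the highest fold change of complex I in RD tumour against RD no tumour, 1.05 (SE 0.68, edgeR adjusted p 0.613). It was at 24.9, 67.2 and 29.8 CPM in RD no tumour, with 136 and 32.8 in RD tumour and 68.7, 26.9 and 39.6 in WD tumour. Only RD tumour 1 was high.

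Ndufa4l2 is a paralogue of Ndufa4 known to be induced by hypoxia. Among the nuclear-encoded subunits of complex I it had the largest absolute log2 fold change in each comparison. It was at 8.73, 3.23 and 8.71 CPM in RD no tumour, with 2.28 and 3.98 in RD tumour and 5.99, 11.2 and 10.9 in WD tumour. Both RD tumour mice were below all 3 WD tumour mice, and RD no tumour 2 was as low as RD tumour. The log2 fold change was 1.58 in WD tumour against RD tumour (SE 0.57, edgeR adjusted p 0.589). It was -1.14 in RD tumour against RD no tumour (SE 0.56, edgeR adjusted p 0.612). In WD tumour against RD no tumour it was 0.44 (SE 0.48, edgeR adjusted p 1.00). It was the only nuclear-encoded gene of the 89 with every WD tumour mouse above both RD tumour mice (12.2% of all genes tested had this, and 9.15% the reverse). Such separation was thus no more frequent among the 89 than among all genes.

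The 8 assembly factors of complex I, which help build the complex and are not part of it, followed the subunits only in part. In RD tumour 1 their median log2 level lay at -0.37, where that of the complex I subunits lay at 0.66. Ndufaf4 was at 56.8, 103 and 56.6 CPM in RD no tumour, with 52.7 and 103 in RD tumour and 55.6, 37.1 and 67.3 in WD tumour. Ndufaf2 spanned only 1.34-fold over the 8 mice, at 50.4, 58.4 and 60.1 CPM in RD no tumour, with 44.8 and 51.7 in RD tumour and 53.8, 46.8 and 49.2 in WD tumour. Ndufaf7, a methyltransferase that acts on a complex I subunit, was at 38.7, 28.0 and 31.1 CPM in RD no tumour, with 21.2 and 28.0 in RD tumour and 21.9, 25.8 and 26.7 in WD tumour. All WD tumour mice and, taken at full precision, both RD tumour mice lay below every RD no tumour mouse. Its log2 fold changes were -0.40 (SE 0.23, edgeR adjusted p 1.00) and -0.41 (SE 0.26, adjusted p 0.613). Ndufaf3 was at 7.85, 8.18 and 9.66 CPM in RD no tumour, with 4.52 and 7.58 in RD tumour and 8.92, 6.13 and 9.32 in WD tumour. Both RD tumour mice lay below every RD no tumour mouse, with a log2 fold change of -0.50 (SE 0.36, edgeR adjusted p 0.625). Ndufaf5 was at 6.24, 6.77 and 6.11 CPM in RD no tumour, with 9.73 and 6.23 in RD tumour and 8.58, 7.61 and 7.55 in WD tumour. All WD tumour mice lay above all RD no tumour mice, with a log2 fold change of 0.31 (SE 0.28, edgeR adjusted p 1.00). Complete separation of the mice was frequent among all genes: 5.87% lay above and 4.77% below in WD tumour against RD no tumour, and 7.29% and 8.31% in RD tumour against RD no tumour.

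Complex II, succinate dehydrogenase, is encoded in the nucleus alone and links the chain to the citric acid cycle. Its flavoprotein Sdha was at 89.8, 134 and 129.9 CPM in RD no tumour, with 67.1 and 123 in RD tumour and 145, 83.3 and 129 in WD tumour. The iron-sulphur subunit Sdhb was at 40.6, 71.0 and 67.1 CPM in RD no tumour, with 88.1 and 51.3 in RD tumour and 68.9, 34.9 and 57.5 in WD tumour. The membrane anchor Sdhd was at 23.3, 46.8 and 36.9 CPM in RD no tumour, with 60.8 and 33.8 in RD tumour and 59.5, 16.7 and 48.8 in WD tumour. The other anchor, Sdhc, was at 23.0, 39.3 and 36.4 CPM in RD no tumour, with 38.2 and 36.1 in RD tumour and 49.2, 22.8 and 40.8 in WD tumour. WD tumour 2 was the lowest mouse for Sdhb, Sdhc and Sdhd. Sdha was lowest in RD tumour 1, where Sdhb and Sdhd were highest. None of the 4 passed the test in any comparison, with log2 fold changes between -0.37 (Sdhb, WD tumour against RD tumour; SE 0.40) and 0.41 (Sdhd, RD tumour against RD no tumour; SE 0.55).

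In complex III the median log2 fold changes of the 8 nuclear-encoded subunits were 0.07, 0.16 and -0.07 in the comparisons of WD tumour with RD no tumour, RD tumour with RD no tumour and WD tumour with RD tumour. Uqcrq, a small subunit of the complex, was at 129, 309 and 178 CPM in RD no tumour, with 239 and 157 in RD tumour and 341, 117 and 213 in WD tumour. The hinge protein Uqcrh was at 86.1, 197 and 120.2 CPM in RD no tumour, with 173 and 109 in RD tumour and 187, 90.4 and 139 in WD tumour. The core protein Uqcrc2 was at 48.1, 77.3 and 72.7 CPM in RD no tumour, with 106 and 60.1 in RD tumour and 90.2, 48.3 and 72.1 in WD tumour. Uqcr11, a small subunit, had the largest fold change of these 8 in both comparisons with WD tumour. On the log2 scale it was 0.40 against RD no tumour (SE 0.62, edgeR adjusted p 1.00). Against RD tumour it was 0.42 (SE 0.71, edgeR adjusted p 0.816). It was at 47.1, 183 and 76.6 CPM in RD no tumour, with 124 and 78.0 in RD tumour and 226, 55.6 and 123 in WD tumour. WD tumour 1 and RD no tumour 2 were the highest 2 mice, and WD tumour 2 and RD no tumour 1 the lowest 2.

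Complex IV, cytochrome c oxidase, was the complex in which all 13 tested nuclear-encoded subunits had a negative log2 fold change in WD tumour against RD tumour (median -0.32, from -1.18 for Cox6a2 to -0.02 for Cox6c), where 50.8% of all genes did. In RD tumour against RD no tumour 12 of the 13 were positive (median 0.38), where 49.8% of all genes were negative. The median log2 level was 1.04 in RD tumour 1 and -0.18 in RD tumour 2. Cox7c was at 182, 381 and 257 CPM in RD no tumour, with 393 and 229 in RD tumour and 374, 180.2 and 271 in WD tumour. Cox6c was at 94.8, 311 and 147 CPM in RD no tumour, with 308 and 134 in RD tumour and 345, 98.2 and 212 in WD tumour. For Cox7a2l, which takes part in joining complexes III and IV, the values were 58.9, 84.6 and 61.0 CPM in RD no tumour, with 149 and 51.0 in RD tumour and 72.0, 50.6 and 65.4 in WD tumour. RD tumour 1 was highest for Cox7c and Cox7a2l and RD tumour 2 lay within the other groups.

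Several subunits of complex IV have isoforms known from muscle, testis or other tissues, and these were at or near the limit of detection except for Cox6b2. Cox8c had 0 UMIs in all 8 mice, which allows up to 3 UMIs per library. Cox7b2 had 7 and Cox8b 23 UMIs over all mice, and all 3 were too low to test. The heart and muscle isoform Cox6a2 had 94 UMIs, at 0.263, 0.045 and 0.068 CPM in RD no tumour, with 1.60 and 0.138 in RD tumour and 0.345, 0.803 and 0 in WD tumour. Its fitted log2 fold change of 2.71 in RD tumour against RD no tumour was the highest of the complex (SE 1.44, edgeR adjusted p 0.612). It rests on RD tumour 1. Cox7a1, the muscle isoform of Cox7a, was at 0.328, 0.681 and 0.034 CPM in RD no tumour, with 1.95 and 0.484 in RD tumour and 0.921, 0.676 and 0.848 in WD tumour. Cox6b2, known as the testis isoform of Cox6b, was well detected and had the widest range of the members with at least 1000 UMIs. It was at 7.06, 21.9 and 26.3 CPM in RD no tumour, with 0.946 and 27.0 in RD tumour and 11.7, 5.96 and 19.4 in WD tumour. RD tumour 1 was the lowest mouse and RD tumour 2 the highest, 28.6-fold apart, so the spread within RD tumour was wider than any difference between groups. The 3 genes for the c subunit of the ATP synthase, which encode the same mature protein, had similar profiles over the mice. Atp5g1 was at 60.9, 144 and 86.0 CPM in RD no tumour, with 129 and 78.8 in RD tumour and 152, 57.5 and 103 in WD tumour. Atp5g2 was at 76.7, 120.2 and 95.8 CPM in RD no tumour, with 159 and 78.6 in RD tumour and 116, 73.1 and 87.1 in WD tumour. Atp5g3 was at 50.1, 142 and 81.4 CPM in RD no tumour, with 144 and 89.7 in RD tumour and 157, 51.7 and 115 in WD tumour. All 3 were low in RD no tumour 1 and WD tumour 2.

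In complex V the 17 nuclear-encoded genes had median log2 fold changes of 0.04, 0.22 and -0.23 in the 3 comparisons, with 10, 16 and 4 of them positive. The head of the synthase is formed by Atp5a1 and the catalytic Atp5b. Atp5a1 was at 153, 256 and 237 CPM in RD no tumour, with 262 and 197 in RD tumour and 235, 116 and 205 in WD tumour. Atp5b was at 102, 191 and 136 CPM in RD no tumour, with 213 and 148 in RD tumour and 202, 93.0 and 167 in WD tumour. Atp5l, a membrane subunit at the dimer interface, had the highest fold change in RD tumour against RD no tumour, 0.65 (SE 0.58, edgeR adjusted p 0.666). It was at 78.5, 195 and 110.1 CPM in RD no tumour, with 299 and 101 in RD tumour and 193, 82.8 and 132 in WD tumour. Only RD tumour 1 was above the range of the RD no tumour mice. Atp5e, a small subunit of the central stalk, was at 56.8, 186 and 88.1 CPM in RD no tumour, with 181 and 77.3 in RD tumour and 216, 60.3 and 131 in WD tumour.

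Within each library the nuclear-encoded genes were also unevenly spread over barcodes. In barcodes with over 5% mitochondrial UMIs they made up a larger share of the UMIs outside mitochondrial genes than in the remaining barcodes of the same mouse, by 1.52-, 2.68- and 3.01-fold in RD no tumour 1 to 3, 1.69- and 2.56-fold in RD tumour 1 and 2, and 3.55-, 3.09- and 2.83-fold in WD tumour 1 to 3. Cytosolic ribosomal protein genes were higher in these barcodes by 1.77- to 4.43-fold, and Malat1 and Neat1, RNAs retained in the nucleus, were at 0.164 to 0.421 of their share in the remaining barcodes. All 3 directions held in all 8 mice. The barcodes over 5% also held fewer UMIs in every mouse. Their median was 630 (RD tumour 2) to 1424 (RD no tumour 2), against 1253 (RD tumour 2) to 4618 (WD tumour 3) in the remaining barcodes. The part of this difference in depth was not tested. Of the 89 nuclear-encoded genes, 81 (91.0%) had a mean log2 ratio above 0 between these barcodes and the rest, and 68 (76.4%) were higher in all 8 mice, against 41.2% and 9.68% of 19051 tested genes outside the mitochondrial genome.

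The length of the gene went along with this. Among members under 5 kb, 28 of 29 lay above 0 with a median log2 ratio of 1.59, where all genes of that length had 0.27. Among members of 20 kb or longer 8 of 13 did, with a median of 0.65, where all genes of that length had -0.48. The 8 members below 0 were Ndufaf4 (-0.91), Ndufa4l2 (-0.61), Ndufaf7 (-0.55), Ndufaf6 (-0.53), Ndufs1 (-0.47), Ndufaf2 (-0.44), Ndufs4 (-0.28) and Ndufaf5 (-0.13), that is, 5 of the 8 assembly factors and 3 of the 81 other members. Over the 89 genes the ratio and log10 gene length correlated at r = -0.47 (Spearman's rho = -0.47). The spread over mice, as the highest over the lowest CPM, also fell with length over the 87 members with at least 1000 UMIs (r = -0.33, rho = -0.47). These are descriptions across genes that share the same 8 libraries, and whether reads in introns were counted is not given in the sources used here. Ndufs4 and Ndufs1, subunits of complex I from long genes, spanned 1.68- and 1.69-fold over the mice. Other long genes of complex I spanned more, such as Ndufa10 at 2.12-fold and Ndufa9 at 2.68-fold. Ndufs4 was at 110.5, 173 and 143 CPM in RD no tumour, with 132 and 131 in RD tumour and 149, 103 and 140.0 in WD tumour. Ndufs1 was at 55.4, 79.1 and 76.4 CPM in RD no tumour, with 68.3 and 81.6 in RD tumour and 79.2, 48.1 and 79.8 in WD tumour.

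**Figure D5:**
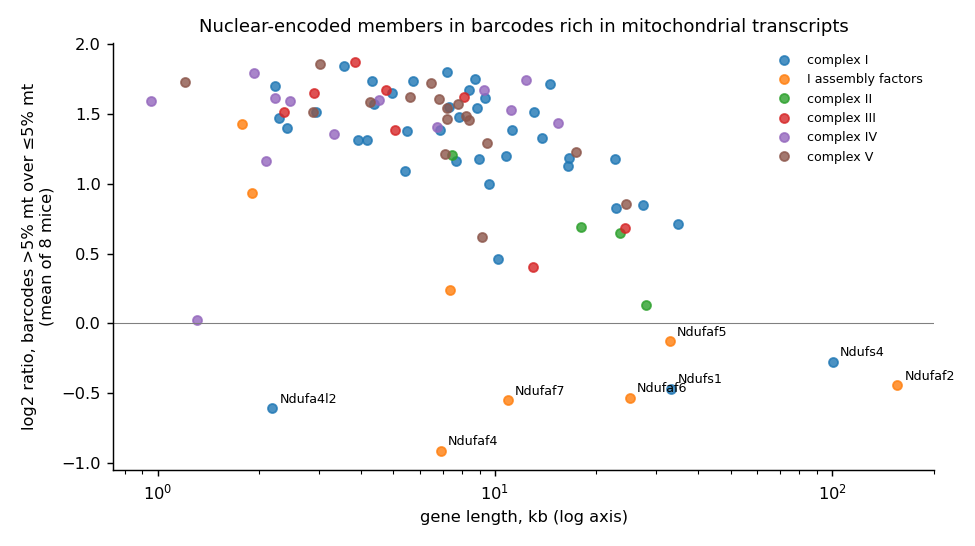
Log2 ratio between barcodes with over 5% and at most 5% mitochondrial UMIs (vertical axis, mean of 8 mice) against gene length in kb (horizontal log axis) for the 89 nuclear-encoded genes tested, coloured by complex. Most genes lie between 1 and 2, the longer genes lie lower, and 5 of the 8 labelled genes below 0 are assembly factors of complex I. The barcodes with over 5% also held fewer UMIs than the rest in every mouse.

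Promoters of the nuclear-encoded genes were searched for the sites of 3 factors known for driving this gene set: NRF1 (GCGCA, any base, then GCGC), the ETS factor GABPA (CCGGAAG) and YY1 (AAGATGGCG). Windows ran from 250 bases before to 50 after the start in RefSeq (GRCm38.p6), on both strands, and 75 members had one. The NRF1 letters were found in 19 of them (25.3%, against 5.19% of all 27025 genes), the ETS letters in 19 (25.3% against 9.93%) and the YY1 letters in 8 (10.7% against 1.64%). At least 1 was found in 39 of the 75 (52.0% against 15.1%). By complex, this was 15 of 33 subunits and 4 of 7 assembly factors of complex I, 3 of 3 of complex II, 3 of 5 of complex III, 3 of 13 of complex IV and 11 of 14 of complex V. The following are the stretches around the matches, in capitals, upstream of a RefSeq start of genes whose values are given above. They read in the direction of the gene:
Sdha, chr13:74350241-74350358 (minus strand): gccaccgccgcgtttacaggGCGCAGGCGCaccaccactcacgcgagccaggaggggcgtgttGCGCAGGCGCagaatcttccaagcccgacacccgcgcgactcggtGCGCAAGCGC
Sdhd, chr9:50603869-50603948 (minus strand): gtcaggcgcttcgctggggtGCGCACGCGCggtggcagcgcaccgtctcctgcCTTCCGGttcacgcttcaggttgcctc
Uqcrh, chr4:116075071-116075100 (minus strand): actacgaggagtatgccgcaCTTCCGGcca
Uqcr11, chr10:80406861-80406907 (minus strand): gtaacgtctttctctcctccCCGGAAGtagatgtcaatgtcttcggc
Atp5e, chr2:174464177-174464223 (minus strand): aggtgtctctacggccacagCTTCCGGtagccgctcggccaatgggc
Atp5l, chr9:44920928-44920974 (minus strand): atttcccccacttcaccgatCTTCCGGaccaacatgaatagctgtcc
Atp5g2, chr15:102671060-102671109 (minus strand): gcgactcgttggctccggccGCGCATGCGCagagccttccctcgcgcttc
Ndufaf4, chr4:24897950-24897999 (plus strand): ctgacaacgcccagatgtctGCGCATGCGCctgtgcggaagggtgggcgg
The matches in Sdha, Atp5g2 and Ndufaf4 are to NRF1, those in Uqcrh, Uqcr11, Atp5e and Atp5l to ETS, and Sdhd holds 1 of each. Those in Atp5g2 and Ndufaf4 read the same on both strands. By the GENCODE positions, the Atp5g2 stretch lies inside the gene, and those of Sdha and Uqcrh reach into theirs. A match is a description of the letters. Some members with a window were lower on average in barcodes with over 5% mitochondrial UMIs. Of these, Ndufaf4, Ndufaf5 and Ndufs4 hold a match, and Ndufaf2 and Ndufaf7 do not. A relation of the matches to the levels was not tested.

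Other genes of the pathway were followed in fixed lists, and 0 genes passed in any list and comparison with edgeR. Of the structural subunits and the electron carrier outside the naming rule, Cox4i1, the main isoform of a regulatory subunit of complex IV, was at 208, 437 and 283 CPM in RD no tumour, with 564 and 262 in RD tumour and 364, 198 and 288 in WD tumour. Cyc1, the cytochrome of complex III, was at 36.2, 71.5 and 61.3 CPM in RD no tumour, with 71.2 and 60.1 in RD tumour and 70.7, 35.0 and 63.9 in WD tumour. Cytochrome c, Cycs, was at 31.8, 82.6 and 55.9 CPM in RD no tumour, with 57.9 and 48.9 in RD tumour and 67.1, 31.3 and 52.6 in WD tumour. Cox4i1, Cyc1 and Cycs were low in RD no tumour 1 and WD tumour 2, as most members were. Cox4i2 was at 0.558, 0.363 and 0.203 CPM in RD no tumour, with 1.72 and 0.277 in RD tumour and 0.461, 0.507 and 0.525 in WD tumour. At this low level it did not follow them, and RD no tumour 1 lay above every mouse but RD tumour 1. Of 42 tested assembly factors of the other complexes and of complex I beyond the Ndufaf genes, 15 were higher and 27 lower in WD tumour against RD no tumour (median log2 fold change -0.06). The lowest unadjusted p there was that of Cox11, a copper chaperone of complex IV (-0.67, SE 0.29, edgeR adjusted p 1.00). In both comparisons with RD tumour it was that of Nubpl, which delivers iron-sulphur clusters to complex I. Nubpl was at 24.2, 22.6 and 46.4 CPM in RD no tumour, with 9.02 and 18.7 in RD tumour and 28.7, 24.5 and 33.2 in WD tumour.

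Among the regulators of mitochondrial biogenesis, 8 of 13 tested were higher and 5 lower in WD tumour against RD no tumour. The coactivator Ppargc1a was at 129, 205 and 164 CPM in RD no tumour, with 159 and 155 in RD tumour and 163, 81.9 and 154 in WD tumour. Esrrg, a nuclear receptor that works with it, ranged widely, at 12.8, 54.3 and 181 CPM in RD no tumour, with 3.25 and 18.5 in RD tumour and 207, 70.3 and 142 in WD tumour. Its log2 fold change was 3.68 in WD tumour against RD tumour (SE 1.26, edgeR adjusted p 0.589). Both RD tumour mice lay below the WD tumour mice, but RD no tumour 1 was below RD tumour 2. Among genes of mitochondrial DNA maintenance and transcription 3 of 16 were higher and 13 lower in WD tumour against RD no tumour (median -0.08). The DNA-packaging factor Tfam was at 14.5, 27.8 and 22.7 CPM in RD no tumour, with 22.3 and 23.8 in RD tumour and 28.3, 12.5 and 23.5 in WD tumour. The mitochondrial RNA polymerase Polrmt was at 13.3, 16.1 and 22.5 CPM in RD no tumour, with 4.02 and 18.6 in RD tumour and 11.9, 9.60 and 14.3 in WD tumour. Neither passed the test in any comparison. Of 18 genes that handle mitochondrial RNA 6 were higher and 12 lower in WD tumour against RD no tumour (median -0.03). Pde12, which trims poly(A) tails in mitochondria, was at 6.57, 6.54 and 4.63 CPM in RD no tumour, with 18.9 and 6.75 in RD tumour and 4.84, 5.88 and 4.88 in WD tumour.

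In the synthesis of coenzyme Q, the carrier between complexes I, II and III, 4 of 13 genes were higher and 9 lower in WD tumour against RD no tumour (median -0.07). Coq2, an enzyme of that pathway, was at 22.3, 18.6 and 27.7 CPM in RD no tumour, with 14.8 and 16.2 in RD tumour and 25.2, 26.2 and 22.8 in WD tumour. In the citric acid cycle with pyruvate dehydrogenase, 8 of 17 were higher and 9 lower (median -0.01). Fumarase, Fh1, had the lowest p of all the lists in WD tumour against RD tumour (-1.33, SE 0.36, edgeR adjusted p 0.589). It was at 83.1, 129 and 55.1 CPM in RD no tumour, with 147 and 112 in RD tumour and 57.1, 44.6 and 52.6 in WD tumour. All 3 WD tumour mice lay below both RD tumour mice, and RD no tumour 3 lay with the WD tumour mice. Mitochondrial ribosomal proteins, which translate the 13 mitochondrially encoded messages, were lower for 58 of 78 genes in WD tumour against RD no tumour (median -0.11). In WD tumour against RD tumour 50 of 78 were lower (median -0.16). Cytosolic ribosomal proteins were higher for 79 of 81 genes in RD tumour against RD no tumour (median 0.96), and RD tumour 1 is the mouse in which their share stood apart. Of the genes with the lowest p in their list not yet named, Mrps31, a protein of the small mitochondrial ribosomal subunit, was at -0.83 in WD tumour against RD tumour (SE 0.34, edgeR adjusted p 0.589). For Mrpl43, Trmt10c, Pprc1 and Coq5 in WD tumour against RD no tumour, and Pdha1, Top1mt and Mrps5 in RD tumour against RD no tumour, even the unadjusted p of edgeR was above 0.05.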

How the data were processed

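Nuclear RNA was measured in 8 livers, 1 library per mouse, with the Chromium single cell 3′ v3.1 chemistry on snap-frozen tissue, per the labels. The authors deposited, for each mouse, raw UMI counts per gene and barcode. They were made with Cell Ranger 7.0.0 on the mouse build mm10, per the submitters' processing notes. The annotation, the rule that called barcodes, the counting of introns and the use of strand are not given in the sources used here. The features list the same 32285 genes in every sample. Positions and lengths are from GENCODE release M21 (GRCm38).

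Counts were summed per mouse over barcodes with at least 300 detected genes. Doublets and RNA free in the suspension were not removed, and the files hold no cell type annotation. CPM are UMIs per 1e+06 UMIs of the library total scaled by its TMM factor. Sums were tested with edgeR 4.0.16 in R 4.3.3 (quasi-likelihood F test, TMM, filterByExpr, 19087 genes) in a model of the 3 groups with all 8 mice. P-values were adjusted over all genes (Benjamini-Hochberg, threshold 0.05). The standard error is the log2 fold change divided by the square root of F. The 3 comparisons share mice: each group enters 2 of them. The mouse is the replicate, the labels give no batch, and depth is given with the results. Alternatives were DESeq2 1.42.0, RLE factors, no filter on low counts, other barcode limits, mitochondrial genes left out of the totals, only the groups compared, the replicate number as a block, and leaving out each mouse.

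The script was tested on simulated counts of 19087 genes, with 50 genes changed per fold. At 2-fold it recovered 2% in WD tumour against RD no tumour, 0% in RD tumour against RD no tumour and 0% in WD tumour against RD tumour. In the same order it recovered 16%, 8% and 4% at 4-fold, and 70%, 58% and 56% at 16-fold. Most changes of 2- or 4-fold were thus missed. Unchanged genes called numbered 4, 6 and 0.

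The members, the gene lists and the tests were chosen with earlier results of these data known. Genes named are all 13 mitochondrially encoded genes, members called, per complex the 2 with the most UMIs and, per comparison, the 1 with the largest fold change, tissue isoforms, genes at the ends of a range or of a count of 5 or fewer, and 1 gene per list and comparison with the lowest p. Cox4i1, Cyc1, Cycs, Ppargc1a, Tfam, Sdhc, Ndufa9, Ndufa10, Ndufs1 and Ndufs4 were named after their values were seen. Marker sets are barcodes with 1000 to 5000 UMIs and at least 3 UMIs of 1 marker list and fewer of every other.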

Additional observations from a re-analysis of the deposited data

How the results depend on the processing

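Of 964 gene values under 17 alternatives, 918 kept their direction, 46 reversed, and 0 passed an adjusted p of 0.05. In barcodes with at most 5% mitochondrial UMIs, the median log2 fold change of the mitochondrially encoded genes in WD tumour against RD tumour was 0.14, with mt-Nd1 at -0.37, mt-Co1 at -0.15, mt-Atp8 at -0.029, mt-Nd5 at -0.10, mt-Nd6 at -0.29 and Uqcr11 at -0.39. In the same barcodes mt-Co2 was at 0.13, mt-Nd4l at 0.20 and mt-Nd5 at 0.17 in RD tumour against RD no tumour, and Sdhd at -0.15, Uqcr11 at -0.20 and Atp5e at -0.31 in WD tumour against RD no tumour. The mitochondrially encoded share of WD tumour averaged 1.79% there and the ratio 3.55, since the limit removes the barcodes with the highest shares. The nuclear-encoded medians there were -0.34 (6 of 89 higher), 0.35 (74 higher) and -0.68 (8 higher) in the 3 comparisons, and with at least 500 genes per barcode 23 of 89 were higher in WD tumour against RD no tumour (median -0.08). Leaving out 1 mouse at a time gave 0 members called except without RD tumour 2, where that group holds 1 mouse. It gave log2 fold changes in RD tumour against RD no tumour of -0.35 to 1.09 for mt-Nd1, -0.58 to 0.061 for mt-Nd2, -0.19 to 0.45 for mt-Co1, -0.51 to 0.32 for mt-Co2, -0.34 to 0.98 for mt-Atp8, -0.76 to 0.15 for mt-Atp6, -0.64 to 0.11 for mt-Co3, -0.64 to 0.76 for mt-Nd3, -0.28 to 0.47 for mt-Nd4l, -0.55 to 0.12 for mt-Nd4, -0.23 to 0.19 for mt-Nd5, -0.87 to 1.41 for mt-Nd6, -0.37 to 0.077 for mt-Cytb, -0.079 to 0.75 for Sdhd, -0.14 to 0.67 for Uqcrc2 and -0.34 to 1.21 for Atp5l. In WD tumour against RD tumour they were -0.089 to 1.36 for mt-Nd1, -0.034 to 2.25 for mt-Nd6, -0.95 to 0.035 for Ndufaf4, -0.69 to 0.070 for Sdhb, -0.22 to 0.79 for Uqcr11, -2.03 to 1.44 for Cox6a2 and -1.12 to 0.43 for Atp5l. In WD tumour against RD no tumour they were -0.14 to 0.60 for Sdhd, -0.21 to 1.14 for Uqcr11 and -0.22 to 0.92 for Atp5e. Cox6a2 did not pass the filter on low counts under some of these alternatives. The cause of these reversals was not tested. The replicate numbers did not pair the mice: same-numbered mice correlated at -0.53 to 0.44 in their deviations. With the replicate number as a block, 0 members were called, nuclear-encoded medians were -0.03, 0.10 and -0.15, and mt-Nd5 was at 0.0055 in RD tumour against RD no tumour. DESeq2 called 37, 75 and 123 genes where edgeR called 0, and 0 members. At this depth 102 of the 105 members could be tested with edgeR, and whether depth limits the rest of the calls was not tested.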

Other observations

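Gene lists used to describe the libraries gave 0 called genes in any comparison with edgeR's quasi-likelihood test. The nuclear-retained RNAs Malat1 and Neat1 together made up 3.64%, 4.16% and 5.33% of UMIs in RD no tumour 1 to 3, 2.59% and 4.36% in RD tumour 1 and 2, and 3.34%, 3.21% and 4.11% in WD tumour 1 to 3. The 4 haemoglobin genes made up 0.755%, 0.436% and 0.438% of UMIs, then 0.618% and 0.471%, then 0.368%, 3.02% and 0.117%, with WD tumour 2 high and WD tumour 3 low. All 10 genes of secreted hepatocyte proteins had a negative log2 fold change in RD tumour against RD no tumour (median -0.78), where 49.8% of all genes did, and 9 of 10 a positive one in WD tumour against RD tumour (median 0.39). Their summed share of UMIs was 1.62%, 4.22% and 3.13% in RD no tumour 1 to 3. It was 1.40% and 2.82% in RD tumour 1 and 2, and 3.41%, 2.53% and 2.97% in WD tumour 1 to 3, so the groups overlapped.

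Of the marker lists in WD tumour against RD no tumour, 8 of 10 cholangiocyte markers (median log2 fold change 0.90), 6 of 10 stellate and fibroblast markers (0.32), 8 of 10 T and NK markers (0.15), 4 of 8 B markers (0.03), 4 of 10 hepatocyte markers (-0.08), 5 of 10 macrophage markers (-0.10) and 4 of 10 endothelial markers (-0.11) were higher. Macrophage markers summed to 0.232% of UMIs in RD tumour 1 against 0.0390% to 0.120% in the other 7 mice. No explanation was tested for these values.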
